A study of Mus musculus with 9 samples.

Results

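The genes Adamtsl4, Afap1, Dnajc12 and Smtnl2 are autosomal candidates for clonal monoallelic expression, and their DNA methylation was followed in one mouse B cell clone exposed to a demethylating drug. They were chosen by name, 4 of the 49943 genes in the reference table on the autosomes, X and Y. Their CpGs were those from 2 kb outside one gene end to 2 kb outside the other with at least 1 read in each of the 9 libraries. That gave 253 CpGs, of 1096949 read in every library. Adamtsl4 (chromosome 3) held 58, Afap1 (chromosome 5) 119, Dnajc12 (chromosome 10) 13 and Smtnl2 (chromosome 11) 63.

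Reduced representation bisulfite sequencing (RRBS) reads CpGs in fragments cut at CCGG sites, after bisulfite has converted unmethylated cytosines. All 9 libraries came from Abl.1, an immortalised B cell clone whose donor strain was 129S1/SvImJ x CAST/EiJ F1 (female), and all cells were collected on day 2 after dead cells had been removed by density centrifugation. The control group grew in medium with 1% DMSO (2 libraries), and the other groups with the drug 5-aza-dC (5-aza-2'-deoxycytidine) at 0.2 µM (2 libraries), 2 µM (3 libraries) or 10 µM (2 libraries). The drug had been dissolved in DMSO, so all groups met this solvent, and the percentage of DMSO is labelled for the control group only. Abl.1 is 1 clone, so nothing here covers other clones, and the files do not separate the reads of the parental alleles. The labels call the replicates library preparations and do not say whether they came from separate cultures. The p-values therefore rest on the read numbers and on the spread between these libraries, partly shared across features. That spread may be technical and need not cover the spread between cultures. Per library, reads at CpGs numbered 8590777 to 16495423, and the median CpG had 3 to 5.

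In clonal monoallelic expression a cell and its descendants transcribe one parental copy of a gene, and other clones may use the other copy or both. Methylation at CpGs near a gene start is generally low where a promoter is active, and can be low or high where it is silent. A region methylated on one copy and not on the other would read in the middle of the scale when both copies are summed, but a mixture of cells or of partly methylated molecules would read the same. Sequence differences between the parental strains at these CpGs, which can also alter a level, were not analysed here. 5-aza-dC is incorporated into replicating DNA, where it traps the maintenance methyltransferase Dnmt1. Afap1 encodes an actin filament associated adaptor that binds Src. Smtnl2 encodes a smoothelin-like protein with a calponin homology domain, Adamtsl4 a secreted ADAMTS-like protein of the extracellular matrix, and Dnajc12 a J-domain co-chaperone of Hsp70.

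Promoters are shown for the members with an entry in the RefSeq promoter table (3 of 4), because the level there differed between them. Each runs from 250 bases before to 50 after the gene start of that table, 5′ to 3′ on the strand of the gene, in build GRCm38.p6 (mm10). For Adamtsl4 that start lies slightly downstream of position 95687927, from which distances are counted elsewhere in the text. Capitals mark the CpGs that were read in every library. The windows were Adamtsl4 chr3:95687868-95688167 (minus strand), Afap1 chr5:35893069-35893368 (plus strand) and Smtnl2 chr11:72411664-72411963 (minus strand).
Adamtsl4: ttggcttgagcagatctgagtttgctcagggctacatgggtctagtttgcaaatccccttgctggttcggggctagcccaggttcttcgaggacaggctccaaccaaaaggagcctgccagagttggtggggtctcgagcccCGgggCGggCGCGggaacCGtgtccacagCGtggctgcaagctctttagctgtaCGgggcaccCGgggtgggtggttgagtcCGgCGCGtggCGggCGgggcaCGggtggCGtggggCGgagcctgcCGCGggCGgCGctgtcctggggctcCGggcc
Afap1: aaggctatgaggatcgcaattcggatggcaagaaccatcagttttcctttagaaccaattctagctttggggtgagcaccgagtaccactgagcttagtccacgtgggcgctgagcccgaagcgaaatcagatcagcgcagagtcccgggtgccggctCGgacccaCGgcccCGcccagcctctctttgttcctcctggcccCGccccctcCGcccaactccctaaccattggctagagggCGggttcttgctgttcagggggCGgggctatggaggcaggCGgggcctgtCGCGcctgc
Smtnl2: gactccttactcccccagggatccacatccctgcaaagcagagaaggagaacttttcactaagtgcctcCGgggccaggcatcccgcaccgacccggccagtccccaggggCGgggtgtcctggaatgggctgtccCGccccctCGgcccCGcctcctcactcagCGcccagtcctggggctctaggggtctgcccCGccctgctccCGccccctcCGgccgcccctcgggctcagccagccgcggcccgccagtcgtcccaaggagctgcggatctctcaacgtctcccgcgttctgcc

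The Adamtsl4 promoter held 24 CG, 21 of them read in every library, and its DMSO level was 19.1% ± 9.34 (SD, n = 2). The Afap1 promoter held 20 CG, 10 of them read, at 1.28% ± 1.81 (SD, n = 2) in DMSO. It had 20 to 69 reads per library summed over these CpGs, and each had 8 or 9 pooled DMSO reads. The Smtnl2 promoter held 22 CG, 9 of them read, and none of its 549 reads, summed over these CpGs and the 9 libraries, was methylated. Counted as independent, they would allow a level of up to 0.546%, and the 135 in DMSO alone up to 2.22%. Since 1 read covers several CpGs and is counted at each, both limits are too low. The promoter of Adamtsl4 thus carried methylation in the DMSO controls, while those of Afap1 and Smtnl2 carried little or none at the CpGs read, on few reads. The cut site CCGG, searched on both strands since it is its own reverse complement, occurred 4 times in the Adamtsl4 window, 2 times in that of Afap1 and 3 times in that of Smtnl2. It was present in 52.8% of the 32851 promoters of the table, whose median was 7 CG.

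A gene end was taken as the CpGs within 1 kb either side of it, and it needed at least 10 reads in every library. Of the 8 ends of the 4 genes, 5 passed: the starts of Adamtsl4 (31 CpGs), Afap1 (62 CpGs) and Smtnl2 (53 CpGs), the far end of Adamtsl4 (4 CpGs) and the lower-coordinate end of Dnajc12 (5 CpGs). The other ends of Afap1, Dnajc12 and Smtnl2 had 0 CpGs read in every library. Which end of Dnajc12 is its start was not analysed here. The 4 CpGs at the far end of Adamtsl4 lie inside the gene, and the same 4 make up the end window of Gm52627, a lncRNA on the other strand that overlaps the far end of Adamtsl4, with the ends of the 2 genes 41 bp apart.

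Only the far end of Adamtsl4 had a DMSO mean in the band from 40 to 60%. Its level was 47.8% in DMSO replicate 1 (33 of 69 reads, 95% Wilson interval 36.5 to 59.4%) and 56.7% in replicate 2 (17 of 30 reads, 39.2 to 72.6%), with a mean of 52.2% ± 6.25 (SD, n = 2). With at least 5 reads per CpG in every library the mean was 69.0%, outside the band. Reads cover several CpGs and PCR copies were not separated, so the intervals cover counting error only and are too narrow.

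The 3 starts lay below the band. The Afap1 start had 24.1% and 27.7% of 755 and 451 reads methylated in the DMSO libraries (Wilson intervals 21.2 to 27.3% and 23.8 to 32.0%). The Smtnl2 start had 15.4% and 13.0% of 628 and 347 reads (12.8 to 18.5% and 9.84 to 16.9%), and the Adamtsl4 start 12.1% and 23.7% of 614 and 321 reads (9.71 to 14.9% and 19.4 to 28.6%). None of these 6 intervals reached 40%. The DMSO libraries of Afap1 and of Smtnl2 were close to each other, and those of the Adamtsl4 start were apart by more than their intervals.

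The lower-coordinate end of Dnajc12 was at 7.55% and 2.63% in the DMSO libraries, from 4 of 53 and 1 of 38 reads. It was the lowest of the 5 ends. Over all 21658 gene ends tested, 6.23% lay in the band from 40 to 60% in DMSO, 5.61% of the 12321 gene starts among them and 7.5% of the 2799 opposite ends. With a band of 30 to 70% these shares were 12.8%, 11.7% and 15.0%, and still 1 of the 5 ends of the 4 genes lay in it.

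**Figure D1:**
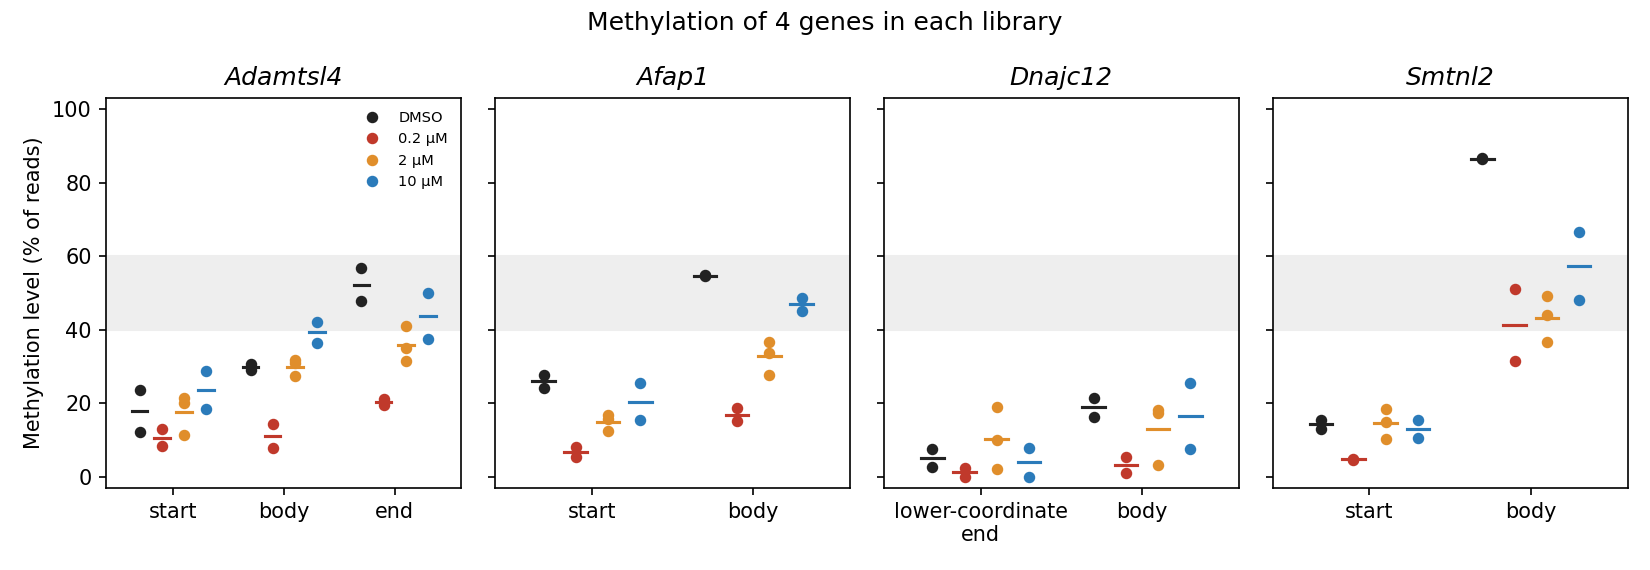
Methylation level (methylated reads as % of all reads) at the gene ends and bodies of the 4 genes, 1 point per library, coloured by group, with a bar at the group mean. The grey band marks 40 to 60%. In DMSO the far end of Adamtsl4 (52.2%) and the body of Afap1 (54.6%) lie in it, and the starts of Afap1, Smtnl2 and Adamtsl4 lie at 25.9%, 14.2% and 17.9%.

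The single CpGs showed how these means arose. At the far end of Adamtsl4 none of the 4 CpGs was itself in the band: pooled over the DMSO libraries they read 0.0%, 36.4%, 97.0% and 37.5% in order of their distance from the gene start, 11009 to 11088 bp. The mean near the middle of the scale was therefore a mean of very unlike CpGs. At the Afap1 start, 38 CpGs had at least 10 pooled DMSO reads, of which 13 were under 20%, 8 at 20 to 40%, 7 at 40 to 60%, 6 at 60 to 80% and 4 at 80% or above. Of the 49 such CpGs at the Smtnl2 start, 35 were under 20% and 4 at 40 to 60%, and of the 30 at the Adamtsl4 start 26 were under 20% and 1 at 40 to 60%. Over all CpGs with at least 10 pooled DMSO reads, 69.9% were under 20%, 4.06% at 40 to 60% and 16.2% at 80% or above.

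The Afap1 start was a gradient. In DMSO it read 2.08% ± 2.95 (SD, n = 2) in the 250 bp before the start and 3.52% ± 1.21 in the first 250 bp of the gene. It then read 20% ± 0.0 from 250 to 500 bp, 48.1% ± 6.66 from 500 to 750 bp and 61.0% ± 0.633 from 750 to 1000 bp, each over 2 libraries. The low promoter thus gave way to a methylated stretch within the first kilobase of the gene. The window mean of 25.9% averages these steps, and with windows of 500 bp either side it was 9.36%. The 7 CpGs in the middle band did not form 1 block: CpGs at 605, 645 and 801 bp read 88%, 48.0% and 94.1%.

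Smtnl2 also stepped up inside the gene. It read 6.24% ± 5.68 (SD, n = 2) from 500 to 250 bp before the start, and none of 135 DMSO reads was methylated in the last 250 bp before it. Its level was 17.2% ± 3.60 from 250 to 500 bp and 13.1% ± 1.34 from 500 to 750 bp. The next 6 CpGs, at 792 to 927 bp, had too few reads per library for a mean, and pooled over the DMSO libraries they read 30% to 60% of 9 or 10 reads each. They include 3 of the 4 Smtnl2 CpGs counted above at 40 to 60%. With 0.2 µM the same 6 read 6.67% to 20% of 15 pooled reads each. The CpG at 1250 bp read 75.0% of 8 pooled DMSO reads, so the level rose further into the gene on these few reads. Outside the gene, the CpGs at -1434 to -1581 bp read 50.0% to 100% of 4 to 7 pooled DMSO reads each. With 0.2 µM they read 7.69% to 19.05% of 13 to 21 pooled reads each. The low stretch thus lay between more methylated CpGs on both sides, on few reads. The Adamtsl4 start had no step up inside the gene. It read 20.3% ± 7.86 in the 250 bp before the start, 17.2% ± 10.0 in the first 250 bp and 12.1% ± 8.84 in the next. These differences were no larger than the SDs or close to them. Just before the lower-coordinate end of Dnajc12, 3 CpGs read 2.47% ± 0.547 (SD, n = 2).

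**Figure D2:**
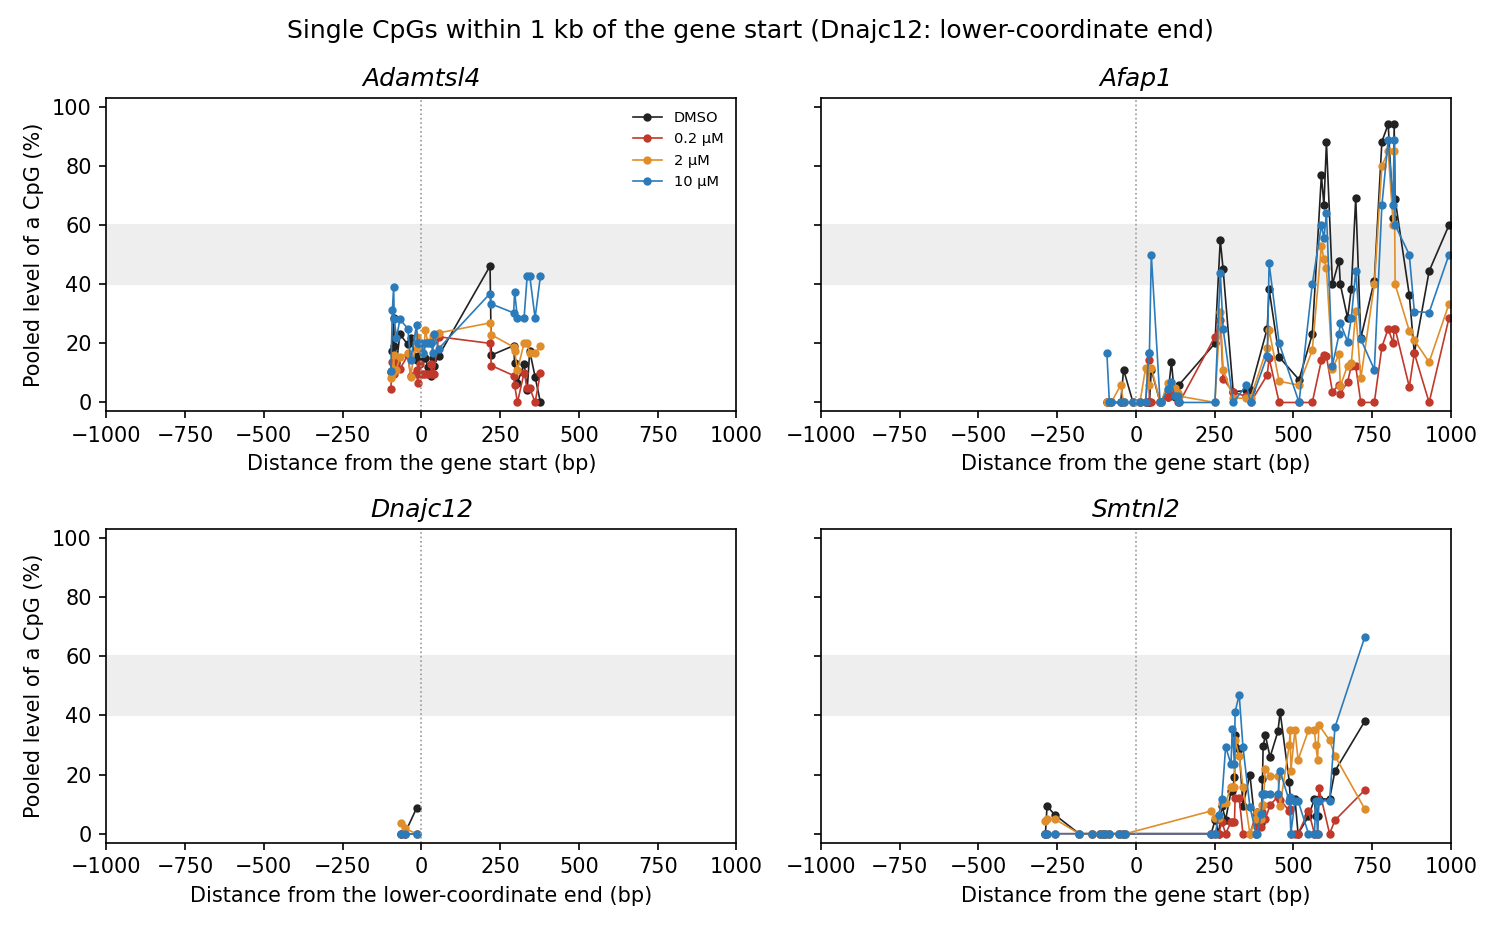
Pooled methylation level of single CpGs (%) against distance from the gene start in bp (for Dnajc12, from the lower-coordinate end), 1 line per group, for CpGs with at least 5 pooled reads in each group. The grey band marks 40 to 60%. Levels at Afap1 climb from under 20% near the start to 94.1% at 801 bp in DMSO, and the 0.2 µM line runs lowest there.

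At 0.2 µM, the lowest dose, 3 of the 5 ends fell against DMSO (binomial model with limma-moderated dispersion, Benjamini-Hochberg adjusted p under 0.05 over all gene ends), where 37.4% of all 21658 gene ends fell. At 2 µM 1 of the 5 fell (28.7% of all ends), and at 10 µM 0 of the 5 (7.62% of all ends). Among gene ends at 10 to 30% in DMSO, where the 3 starts lay, 35.1% fell at 0.2 µM, 5.4% at 2 µM and 0.0% at 10 µM. None of the 5 was called higher than DMSO at any dose, as 0.0739%, 0.148% and 0.143% of all ends were at 0.2, 2 and 10 µM. At 10 µM none of the 5 had an unadjusted p under 0.05 either, and limma on unweighted CpG levels also called none. In each of the 5 ends the group mean was lowest at 0.2 µM.

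The Afap1 start was at 24.1% and 27.7% in DMSO, 5.43% and 8.15% with 0.2 µM, 12.3%, 15.7% and 16.7% with 2 µM, and 15.3% and 25.4% with 10 µM. The libraries at 0.2 µM and at 2 µM all lay below both DMSO libraries, and at 10 µM 1 library was near the 2 µM group and the other between the DMSO libraries. It fell by 19.1 points at 0.2 µM (limma-moderated, adjusted p = 0.000127) and by 11.0 points at 2 µM (adjusted p = 0.0167). At 10 µM the change of -5.56 points did not pass (adjusted p = 0.615). The call at 2 µM was lost without DMSO replicate 2 (-9.18 points, adjusted p = 0.138) and without 2 µM replicate 1 (-9.68 points, adjusted p = 0.0596), and with unweighted CpG levels (-7.25 points, adjusted p = 0.157). With windows of 500 bp, which leave out most of the methylated stretch, neither call passed (-5.15 points at 0.2 µM, adjusted p = 0.288, and -3.46 points at 2 µM, adjusted p = 0.706).

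The fall at Afap1 was in the stretch that was methylated. From 500 to 750 bp after the start the level went from 48.1% in DMSO to 8.39% ± 0.703 with 0.2 µM (SD, n = 2), 20.3% ± 3.70 with 2 µM (SD, n = 3) and 34.9% ± 13.2 with 10 µM (SD, n = 2). From 750 to 1000 bp the 3 doses gave 14.5%, 43.1% and 50.4%, against 61.0%. In the first 250 bp of the gene it was 1.64%, 4.20% and 3.88%, against 3.52%. Among the 409 gene starts within 5 points of Afap1 in DMSO, the median change at 0.2 µM was -11.7 points, and 8.31% fell by more than Afap1. At 2 µM the median was -6.23 points and 16.9% fell by more.

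The Smtnl2 start was at 15.4% and 13.0% in DMSO, 4.62% and 4.80% with 0.2 µM, 14.7%, 18.5% and 10.3% with 2 µM, and 15.5% and 10.4% with 10 µM. Both 0.2 µM libraries lay below all others, and the groups at 2 and 10 µM overlapped DMSO. It fell by 9.50 points at 0.2 µM (limma-moderated, adjusted p = 0.00686), and differed from DMSO by 0.32 points at 2 µM (adjusted p = 1.0) and by -1.26 points at 10 µM (adjusted p = 1.0). The call at 0.2 µM was lost without DMSO replicate 1 (-8.26 points, adjusted p = 0.0630), with unweighted CpG levels (-10.1 points, adjusted p = 0.0588) and with windows of 500 bp (-8.38 points, adjusted p = 0.0586). Of the gene starts within 5 points in DMSO (582), 20.6% fell by more at 0.2 µM.

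The Adamtsl4 start was at 12.1% and 23.7% in DMSO, 8.22% and 13.0% with 0.2 µM, 20%, 11.4% and 21.3% with 2 µM, and 28.7% and 18.5% with 10 µM. Every dose overlapped DMSO, since the DMSO libraries were far apart. None of its changes of -7.25, -0.30 and 5.76 points passed (limma-moderated, adjusted p = 0.204, 1.0 and 0.586). Without DMSO replicate 1 the change at 0.2 µM was -13.1 points and passed (adjusted p = 0.0454).

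The far end of Adamtsl4, the only end in the middle band, was at 47.8% and 56.7% in DMSO, 21.1% and 19.6% with 0.2 µM, 41.0%, 31.4% and 35.1% with 2 µM, and 37.5% and 50.0% with 10 µM. The 0.2 and 2 µM libraries lay below DMSO, and 10 µM overlapped it. It fell by 31.9 points at 0.2 µM (limma-moderated, adjusted p = 0.0240). The changes of -16.4 points at 2 µM (adjusted p = 0.363) and -8.50 points at 10 µM (adjusted p = 0.971) did not pass. The call at 0.2 µM was lost when either DMSO or either 0.2 µM library was left out (adjusted p = 0.0638 to 0.119). Of the 115 opposite ends within 5 points in DMSO, 47.8% fell by more at 0.2 µM, and their median change was -31.9 points. The CpG that was almost fully methylated in DMSO (97.0%) read 44.4%, 57.1% and 76.9% at the 3 doses, and the unmethylated one read 0.0% in every group.

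The lower-coordinate end of Dnajc12 was at 7.55% and 2.63% in DMSO, 0.0% and 2.27% with 0.2 µM, 9.84%, 1.96% and 19.0% with 2 µM, and 7.89% and 0.0% with 10 µM. The libraries at 0.0% had 31 and 36 reads, which allow levels of up to 9.68% and 8.33% if counted as independent. These limits are too low where 1 read covers several CpGs. None of the 3 changes passed (-3.95, 5.19 and -1.14 points, limma-moderated adjusted p = 0.615, 0.798 and 1.0). The methylated reads of this window came mainly from its outer CpGs, at -890 and -918 bp, which had 4 DMSO reads each. At the 3 CpGs beside the end, none of 55 reads at 0.2 µM and none of 65 at 10 µM was methylated.

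**Figure D3:**
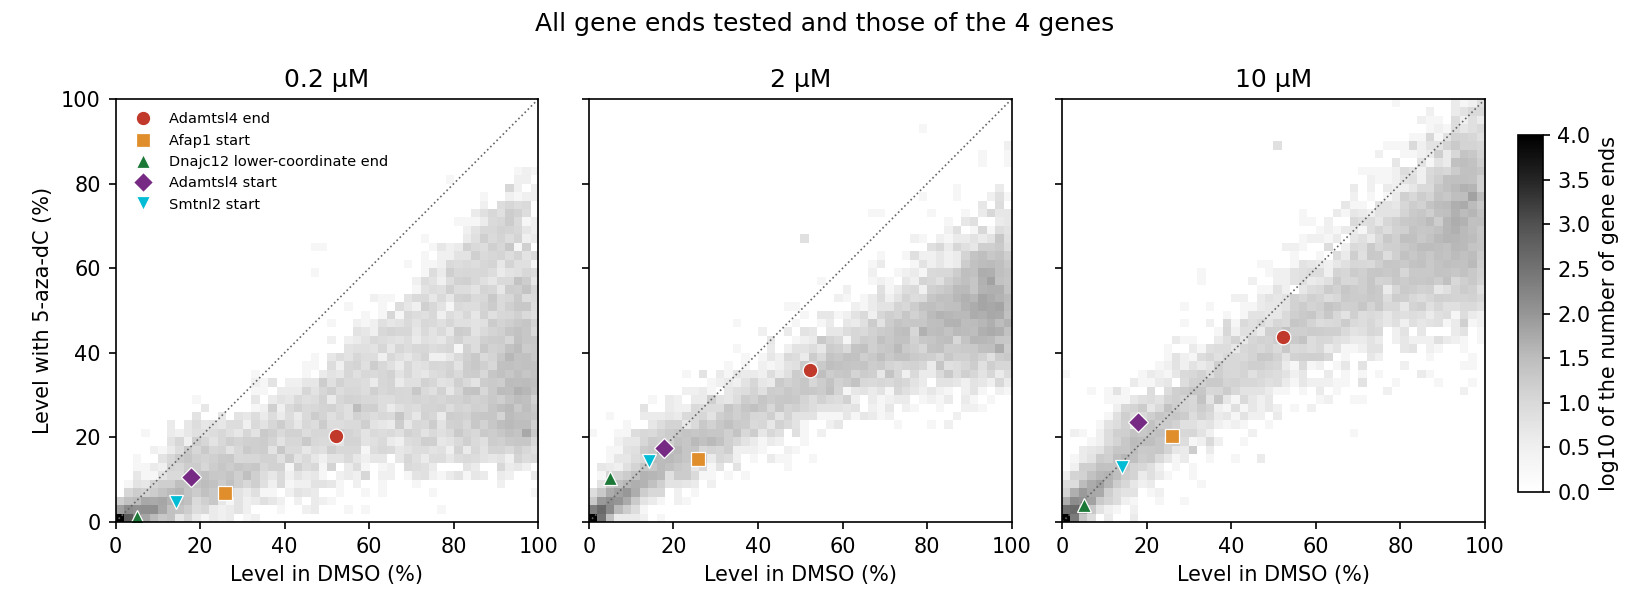
Level with 5-aza-dC (%) against level in DMSO (%) for all gene ends tested, 1 panel per dose, with grey shade for the log10 number of ends and the dotted line at equality. Coloured symbols are the 5 ends of the 4 genes. At 0.2 µM all 5 lie under the line, and at 10 µM the Adamtsl4 start lies over it (23.6% against 17.9%) without passing the test.

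Between doses, 10 µM exceeded 0.2 µM at 3 of the 5 ends (19.7% of all ends), 2 µM exceeded 0.2 µM at 1 (2.59% of all ends), and 10 µM exceeded 2 µM at 0 (4.02% of all ends, and 0 of the 5 at an unadjusted p under 0.05). From 0.2 to 10 µM, Afap1 rose by 13.6 points (limma-moderated, adjusted p = 0.00485), the Adamtsl4 start by 13.0 points (adjusted p = 0.0266) and Smtnl2 by 8.23 points (adjusted p = 0.0320). Smtnl2 was also 9.81 points higher at 2 µM than at 0.2 µM (adjusted p = 0.0413). The Afap1 start at 2 µM was 8.14 points above 0.2 µM with no overlap, and did not pass (adjusted p = 0.0891). All 4 calls were lost under at least 1 left-out library. For Afap1 these were 0.2 µM replicate 1 (12.2 points, adjusted p = 0.0703) and 10 µM replicate 2 (8.48 points, adjusted p = 0.105). For the Adamtsl4 start they were either 0.2 µM library and 10 µM replicate 1 (7.91 to 15.4 points, adjusted p = 0.0579 to 0.339). With windows of 500 bp the Afap1 rise was 3.58 points (adjusted p = 0.684). That of the Adamtsl4 start also missed the threshold with such windows (13.0 points, adjusted p = 0.0516), with at least 5 reads per CpG (12.9 points, adjusted p = 0.0562) and with unweighted CpG levels (14.7 points, adjusted p = 0.1505).

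For Smtnl2 at 10 against 0.2 µM the call was lost without either 0.2 µM library or 10 µM replicate 1 (5.71 to 8.32 points, adjusted p = 0.138 to 0.260). At 2 against 0.2 µM it was lost without either DMSO library, either 0.2 µM library, or 2 µM replicate 1 or 2 (7.82 to 9.90 points, adjusted p = 0.0516 to 0.273). Both Smtnl2 calls were also lost with unweighted CpG levels, with at least 5 reads per CpG, with at least 20 reads per feature and with windows of 500 bp. In those settings the rise from 0.2 to 10 µM was 6.11 to 11.1 points (adjusted p = 0.0521 to 0.280), and that from 0.2 to 2 µM was 6.27 to 10.2 points (adjusted p = 0.0691 to 0.377).

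Away from the ends, the gene bodies (CpGs more than 1 kb inside both ends) fell in all 4 genes at 0.2 µM, where 81.7% of the 13810 bodies fell. At 2 µM 2 of 4 fell (67.3% of all bodies), and at 10 µM 0 of 4 (32.8% of all bodies, and 1 of the 4 at an unadjusted p under 0.05). The Afap1 body (57 CpGs) was at 54.7% and 54.5% in DMSO, 18.7% and 15.1% with 0.2 µM, 27.7%, 36.7% and 33.6% with 2 µM, and 48.6% and 45.1% with 10 µM. The 4 groups did not overlap, and their order was 0.2 µM, 2 µM, 10 µM and DMSO from low to high. It fell by 37.7 points at 0.2 µM (limma-moderated, adjusted p = 7.24e-08) and by 21.9 points at 2 µM (adjusted p = 0.000183), and its -7.73 points at 10 µM did not pass (adjusted p = 0.271). With at least 5 reads per CpG the change at 2 µM was -12.6 points and did not pass (adjusted p = 0.0553).

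The Afap1 body mean of 54.6% lay in the middle band while its CpGs did not. Of 21 body CpGs with at least 10 pooled DMSO reads, 8 were under 20%, 1 at 40 to 60%, 4 at 60 to 80% and 8 at 80% or above. In DMSO, runs of neighbouring CpGs (at most 250 bp apart) read 63.5% ± 19.0 (SD, n = 2) at 15586 to 15764 bp from the start and 100% ± 0.0 at 49910 to 50065 bp. A run at 70501 to 70604 bp read 15.3% ± 5.27, and runs at 81210 and 88379 bp onward read 80.2% ± 2.30 and 81.7% ± 15.4. Of these 5 runs, each with at least 10 reads in every library, 1 was thus weakly methylated. Runs with fewer reads lay on both sides. The 4 CpGs at 14912 to 14990 bp read 0.0% to 16.7% of 6 to 12 pooled DMSO reads, and the 6 at 80708 to 80878 bp read 0.0% in every group, of 6 to 12 pooled reads each. The CpGs at 24624 to 24691 bp, 39687 to 39714 bp and 49167 to 49415 bp all read 100% in DMSO, of 2 to 10 pooled reads each. At 0.2 µM the 5 deeper runs read 27.0%, 13.5%, 0.617%, 16.7% and 21.3%, so the run that was fully methylated in DMSO was not the highest after the drug. At 10 µM they read 68.6%, 80.9%, 14.9%, 41.1% and 69.7%.

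The Smtnl2 body, with only 6 CpGs and 15 to 59 reads per library, was at 86.4% and 86.7% in DMSO, 31.4% and 51.0% with 0.2 µM, 44.0%, 49.2% and 36.5% with 2 µM, and 48.1% and 66.7% with 10 µM. All treated libraries lay below DMSO. It fell by 45.3 points at 0.2 µM (limma-moderated, adjusted p = 0.000955) and by 43.3 points at 2 µM (adjusted p = 0.00112). At 10 µM the change of -29.1 points did not pass (adjusted p = 0.0556), and did without 10 µM replicate 2 (-38.4 points, adjusted p = 0.0429).

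The Adamtsl4 body (23 CpGs) was at 29.1% and 30.5% in DMSO, 7.66% and 14.4% with 0.2 µM, 31.8%, 27.3% and 30.8% with 2 µM, and 36.4% and 42.1% with 10 µM. The 0.2 µM libraries were lowest, 2 µM overlapped DMSO and 10 µM lay above it. It fell by 18.8 points at 0.2 µM (limma-moderated, adjusted p = 0.000326), and its changes of 0.13 points at 2 µM (adjusted p = 0.974) and 9.42 points at 10 µM (adjusted p = 0.201) did not pass. When each CpG had equal weight the change at 2 µM was -16.0 points and passed (adjusted p = 0.00525), so the result there depends on the weighting. The run at 6122 to 6224 bp read 93.3% ± 6.21 in DMSO (SD, n = 2) and 28.3% ± 3.89 with 0.2 µM (n = 2). With 2 µM it read 59.9% ± 13.4 (n = 3), and with 10 µM 95.7% ± 1.86 (n = 2). The runs at 3455 to 3762 bp and at 4060 to 4436 bp read 26.9% and 11.7% in DMSO, 4.59% and 4.76% at 0.2 µM, and 30.4% and 12.3% at 2 µM. The highly methylated run had a lower group mean at 2 µM than in DMSO, while both weakly methylated runs were near or above theirs.

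The Dnajc12 body was 1 run of 8 CpGs at 4204 to 4280 bp from the lower-coordinate end. It was at 21.4% and 16.3% in DMSO, 5.23% and 1.01% with 0.2 µM, 3.17%, 18.2% and 17.3% with 2 µM, and 7.56% and 25.6% with 10 µM. The 0.2 µM libraries lay below DMSO, and the libraries at 2 and at 10 µM spread from below to near or above it. It fell by 15.8 points at 0.2 µM (limma-moderated, adjusted p = 0.00434), a call lost without 0.2 µM replicate 2 (-13.7 points, adjusted p = 0.0528). The changes of -5.98 and -2.31 points at 2 and 10 µM did not pass (adjusted p = 0.458 and 0.628). Single CpGs in the run ranged from 4.17% to 37.5% in DMSO, and none of the 7 with at least 10 pooled DMSO reads was at 40% or above.

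**Figure D4:**
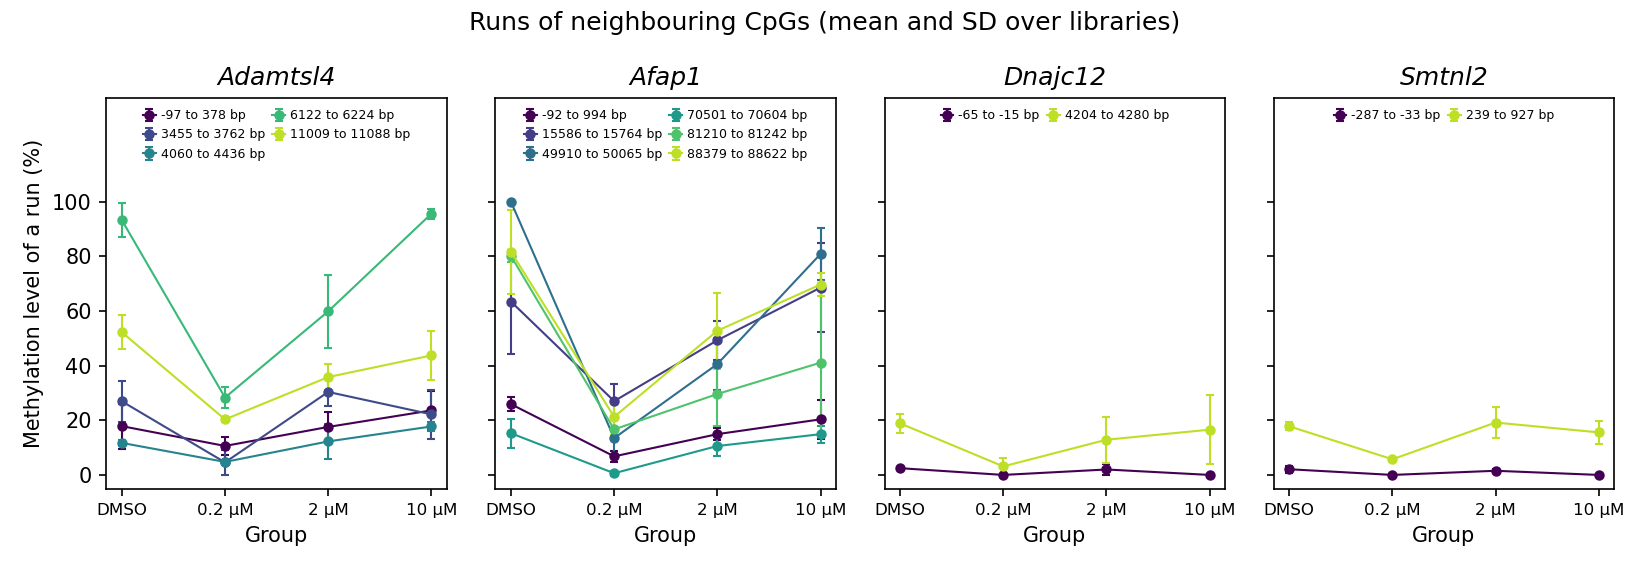
Methylation level (%) of runs of neighbouring CpGs in each group, with points at the mean and bars of 1 SD over 2 or 3 libraries, each run named by its distance from the gene start (for Dnajc12, the lower-coordinate end). The run of Adamtsl4 at 6122 to 6224 bp reads 93.3% in DMSO and 28.3% at 0.2 µM, and that of Afap1 at 49910 to 50065 bp reads 100% and 13.5%.

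Over the whole span of each gene with its 2 kb flanks, all 4 genes fell at 0.2 µM (53.9% of the 24437 spans fell), 1 fell at 2 µM (36.9%) and 0 at 10 µM (12.6%, and 0 of the 4 at an unadjusted p under 0.05). Afap1 went from 34.7% ± 1.80 (SD, n = 2) in DMSO to 10.9% ± 0.207 (n = 2), 21.8% ± 2.73 (n = 3) and 31.0% ± 4.01 (n = 2) with increasing dose. Its changes were -23.8 points (limma-moderated, adjusted p = 6.62e-07), -12.9 points (adjusted p = 0.00139) and -3.70 points (adjusted p = 0.596). At 0.2 µM the Adamtsl4 span changed from 23.5% to 11.5% (-12.0 points, limma-moderated adjusted p = 0.00214), the Smtnl2 span from 18.9% to 8.05% (-10.8 points, adjusted p = 0.00659) and the Dnajc12 span from 14.0% to 2.87% (-11.1 points, adjusted p = 0.0165). The call for Adamtsl4 was lost without DMSO replicate 2 (-7.85 points, adjusted p = 0.0588) or 0.2 µM replicate 1 (-9.57 points, adjusted p = 0.0606). The call for Dnajc12 was lost without DMSO replicate 1 (-9.63 points, adjusted p = 0.0782) or 0.2 µM replicate 2 (adjusted p = 0.138).

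An exact permutation test over the 4 groups on the unweighted span level asked whether any group differed. Its exact p was 0.000794 for Afap1 (adjusted over 24437 spans 0.00547), the smallest p that it can give, and p = 0.0119 for Adamtsl4 (adjusted 0.0249). For Smtnl2 the exact permutation p was 0.0698 (adjusted 0.0967) and for Dnajc12 0.148 (adjusted 0.184), and neither passed. Of all spans, 14989 passed. At 2 µM the span levels of Adamtsl4, Dnajc12 and Smtnl2 were 22.6%, 12.3% and 19.2%, with changes of -0.91, -1.68 and 0.36 points that did not pass (limma-moderated adjusted p = 0.949, 0.899 and 0.974).

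Other gene ends had patterns close to those of the 4 genes, measured by the root mean square difference over the 9 library levels among the 18385 ends with at least 20 reads in every library. The start of Sema4g, a semaphorin gene, differed from the Smtnl2 start by 2.44 points. The Afap1 start was closest to the start of Cda, the cytidine deaminase gene (2.55 points), and to an end of Ndufa4l2 (2.64 points). For the Adamtsl4 start they were the start of Prps2 (3.74 points) and an end of Gm13889 (3.90 points). Its far end was closest to that of Tlcd3b (3.95 points), beside Gm52627, which has the same CpGs. For Dnajc12 they were Gm30039 (3.64 points) and Ergic3 (3.65 points).

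Paralogues gave a wide range of levels. Of 9 paralogues looked for, 6 had a covered end, with 8 windows in all, whose median DMSO level was 13.3% and whose range was 0.21% to 95.1%, against a median of 3.83% over all ends. None of the 8 lay at 40 to 60%. At 0.2, 2 and 10 µM, 3, 3 and 1 of the 8 windows fell, near the shares of all gene ends that fell (37.4%, 28.7% and 7.62%). The far end of Smtn, the smoothelin gene, fell from 94.6% to 13.4% at 0.2 µM (limma-moderated, adjusted p = 9.55e-06), while the start of Smtn read 0.291% and that of Smtnl1 0.21% in DMSO. The Adamtsl3 start fell from 95.1% to 66.6% at 0.2 µM (adjusted p = 9.22e-05) and an end of Adamtsl1 from 65.0% to 40.7% (adjusted p = 0.00350). The Adamtsl5 start was at 5.06%, with a change of -3.43 points at 0.2 µM that did not pass (adjusted p = 0.106). Of 7 other genes reported as monoallelic in mouse cells, only Il10 had a covered end, 2 CpGs at 0.0% in DMSO, so the 4 genes could not be set beside that class.

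The labelled cell type was checked at ends of marker genes in DMSO. Of the B lineage genes, Ebf1 read 0.303%, Cd79b 0.649% and Vpreb1 0.658%. Of the T lineage genes, Lck read 100% and Cd4 0.573%, and the myeloid gene Csf1r read 52.8%. Methylation does not measure expression, and no expression data were used here.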

How the data were processed

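RRBS was measured in 9 libraries of Abl.1 cells. The authors deposited 1 table per library without a header, with a CpG interval, methylated over all reads as text, and a score from 0 to 1000. The deposited score was the share of methylated reads multiplied by 1000 and truncated, so the read numbers were used instead. The build is mm10, per the submitters' processing notes, with the aligner, caller and filters not given in the sources used here. All 47604 positions inside RefSeq promoters of chromosomes 3, 5, 10 and 11 fell on CG. Gene coordinates, strands and promoters came from RefSeq tables of GRCm38.p6.

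CpGs needed at least 1 read in each library, and reads were summed over gene ends (1 kb either side), bodies and spans (2 kb flanks), each with at least 10 reads in every library. A level is methylated reads as a percent of all reads, per library, computed from the deposited read numbers. Groups were compared with a binomial model over all 9 libraries and 1 level per group. Read numbers were scaled for the correlation of reads within a feature, in 5 coverage classes, and the dispersion was moderated with limma 3.58.1 (R 4.3.3), with a trend on coverage and not under 1. The dispersion was fixed at 1 for features that were almost unmethylated or almost fully methylated over all reads. P-values were Benjamini-Hochberg adjusted over all features of a comparison, with a threshold of 0.05. Changes are differences of group means in percentage points.

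The method was tested on simulated data with 200 features changed by 1.5 on the log odds scale. For 0.2 µM against DMSO it called 89 of 200 changed ends among 21658, with 7 unchanged ones, 125 of 200 bodies among 13810 (7 unchanged) and 129 of 200 spans among 24437 (5 unchanged). The simulated reads followed the read correlation that the model itself had estimated. Far fewer features changed than were called in the data, so these numbers do not give the power or error rate there. The members, lists and tests were chosen with earlier results of these data known, so the lists lend no independent support. The text names each end, body and span of the 4 genes, covered ends of paralogues and of other reported monoallelic genes, and for each covered end the 2 most similar ends of other genes. Some results of these lists are not reported here. Alternatives were the reads needed per CpG and per feature, CpG weighting, the deepest CpGs, the window width, each library left out, a replicate block and an exact permutation test. Parental alleles, exons, introns and UTRs were not analysed here.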

Additional observations from a re-analysis of the deposited data

How the results depend on the processing

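Calls at single ends, bodies and spans of the 4 genes that were lost or gained under an alternative are given in the report. The numbers of features called depended on the alternatives that follow, and the cause was not tested except where fewer or other features entered by construction. The main test, the unweighted levels, the replicate block and each left-out library all used 21658 ends, 24437 spans and 13810 bodies.

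With at least 5 reads per CpG, fewer features entered: 16934 ends, 19375 spans and 8674 bodies. Falls at gene ends then numbered 3963, 3259 and 987 at 0.2, 2 and 10 µM, at spans 6889, 5077 and 1850, and at bodies 5843, 4843 and 2463. Rises between doses numbered 0 (2 against 0.2 µM, limma-moderated, 1645 ends at an unadjusted p under 0.05), 96 (10 against 2 µM) and 1303 (10 against 0.2 µM), and for the 4 genes 0, 0 and 1. None of the bodies of the 4 genes then fell at 2 µM (0, with Smtnl2 not covered). The DMSO level was 69.0% at the far end of Adamtsl4 and 17.2% at the Smtnl2 start, and 0 ends lay at 40 to 60%. The change at 2 µM turned to -2.34 points at Dnajc12, -3.59 at the Smtnl2 start and -3.59 at its span, that at 10 µM to -4.16 at the Adamtsl4 body, and 10 against 2 µM to 2.33 at the Smtnl2 start. With at least 20 reads per feature, 18385 ends and 11115 bodies entered. Rises at these ends numbered 335 (2 against 0.2 µM, 0 for the 4 genes) and 2826 (10 against 0.2 µM). At 2 µM, 1 body of the 4 genes fell (Smtnl2 again not covered). Leaving out the 0.1% of CpGs with the most reads changed no call of the 4 genes.

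With windows of 500 bp, 17410 ends entered. Ends that fell numbered 4896, 3833 and 863, and rises 87, 204 and 1944, with 0 calls for the 4 genes in each. The DMSO level was 9.36% at the Afap1 start and 12.2% at the Smtnl2 start, and the far end of Adamtsl4 had no CpG, so 0 ends lay in the band. The 2 µM change was -0.48 points at Dnajc12 and -2.11 at the Smtnl2 start, and 10 against 2 µM was 1.56 there. With windows of 2 kb, 27576 ends entered. Ends that fell numbered 12497, 9572 and 3009, and rises 1841, 2047 and 8066. The Smtnl2 start had a DMSO level of 16.8% and a 2 µM change of -0.30 points.

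With unweighted CpG levels, 135 ends fell at 10 µM and 16814 spans at 2 µM, and rises numbered 140 (2 against 0.2 µM) and 461 (10 against 2 µM). For the 4 genes, 0 ends fell at 2 µM, 0 rose from 0.2 to 2 µM and 1 from 0.2 to 10 µM. The DMSO level was 23.0% at the Afap1 start and 13.4% at Dnajc12. Changes turned to 0.40 points (Adamtsl4 start, 2 µM), -0.86 and 1.59 (Dnajc12, 2 and 10 µM), 2.45 (Dnajc12, 10 against 2 µM), -4.15 (Smtnl2 span, 2 µM), and -16.0 and -0.996 (Adamtsl4 body, 2 and 10 µM). Of spans past the exact permutation test over the 4 groups, 14897 were lower at 2 µM and 13995 at 10 µM. For the 4 genes these numbers were 2 (0.2 µM), 2 (2 µM) and 1 (10 µM).

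Libraries with the same replicate number showed almost no shared deviation from their group means (correlation of deviations -0.018 to 0.019). With 2 or 3 libraries per group and few reads per CpG, this cannot exclude a batch shared by replicate number. With the replicate number as a block, which leaves out 2 µM replicate 3, rises numbered 218 (2 against 0.2 µM) and 537 (10 against 2 µM). The Adamtsl4 body change at 2 µM was -0.28 points, and no call of the 4 genes changed.

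Leaving out each library in turn, falls ranged from 319 to 1767 (ends), 1390 to 3216 (spans) and 2443 to 4641 (bodies) at 10 µM. Rises ranged from 0 to 716 (2 against 0.2 µM; 0 without either 0.2 µM library, limma-moderated, with 2286 and 2264 at an unadjusted p under 0.05), from 110 to 643 (10 against 2 µM) and from 2065 to 4416 (10 against 0.2 µM). For the 4 genes, ends that fell at 2 µM numbered 0 to 1, bodies at 10 µM 0 to 1, and rises 0 to 1 (2 against 0.2 µM) and 0 to 3 (10 against 0.2 µM). These changes, none called by the main test, took both signs. At 2 µM against DMSO they ranged from -6.11 to 5.52 points (Adamtsl4 start), -5.07 to 3.25 (its span), -0.77 to 1.45 (its body), -1.68 to 2.42 (Smtnl2 start), -2.63 to 2.83 (its span) and -4.41 to 1.24 (Dnajc12 span). At 10 µM they ranged from -0.0562 to 11.6 (Adamtsl4 start), -3.78 to 1.26 (Smtnl2 start), -3.81 to 1.04 (its span), -5.09 to 2.81 (Dnajc12 end) and -11.3 to 6.70 (its body). They were -1.14 to 6.76 for Dnajc12 at 10 against 0.2 µM and -4.10 to 0.94 for the Smtnl2 start at 10 against 2 µM.

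Depth limits the far end of Adamtsl4, the Dnajc12 end and the Smtnl2 body most, with 15 to 69 reads per library.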
